A study of Mus musculus and Homo sapiens with 9 samples.

Results

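The comparison described here is that of splenic CD3+ T cells from Irf2bp2 knockout mice with those from control mice, across all annotated mouse genes. Its members are 5 of the 9 RNA-seq libraries of the series, 2 labelled Irf2bp2 KO and 3 labelled wild type. The knockout mice carried a Vav-iCre transgene and 2 floxed alleles of Irf2bp2 (Vav-iCre+/-;Irf2bp2fl/fl). According to the study's methods the controls carried the same floxed alleles without the transgene (Vav-iCre-/-;Irf2bp2fl/fl), although the labels call them wild type. In both groups the cells were taken from the spleen and sorted magnetically for CD3, the invariant part of the T cell receptor complex. Vav-iCre is a Cre recombinase driven by the Vav promoter, which is active in blood stem cells and their progeny. The allele was therefore deleted in all blood lineages of these mice and not in T cells alone, so B cells, red cell precursors and myeloid cells that pass the sort also lack the gene. The study's mice of these genotypes were killed young, at an age it gives in weeks, but neither the labels nor the study tie that age to the sequenced libraries. Their sex, and whether a library holds 1 mouse or a pool, are not given in the sources used here, so the p-values measure the spread between these libraries.

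IRF2BP2 is a nuclear cofactor that binds IRF2 and other transcription factors and mostly acts as a corepressor. Naive T cells circulate through the spleen in a resting state, held by homing receptors such as CCR7, and on activation they leave that state, divide and make cytokines, granzymes and inhibitory receptors. The spleen of the mouse also makes red blood cells in its red pulp and houses B cells, plasma cells and macrophages. Genes of these lineages are reported apart from the T cell genes below, because a sorted sample can hold some cells of each. In bulk RNA, more cells of a type and more RNA per cell cannot be told apart.

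The libraries held between 16668577 and 37177523 counts, and control replicate 3 was the shallowest. The detection limit, set at 3 counts, corresponds to between 0.0783 and 0.188 CPM in a library, where CPM is the read count scaled to a common library size. This limit covers counting error only. All 18 T cell markers on the list used here were detected in every library, and their summed level was between 9789 and 11450 CPM in the controls and between 7641 and 7928 CPM in the knockout. Irf2bp2 (ENSMUSG00000051495, on the minus strand of chromosome 8 of mm10, chr8:126588296-126593986) measured 112, 127 and 120 CPM in the 3 control libraries and 0 CPM in both knockout libraries. The groups did not overlap, and with 3 counts as the limit over the knockout group, its level there was at least 2942-fold lower. The labels of all 5 libraries thus match the gene that was deleted. The paralogs Irf2bp1 and Irf2bpl did not pass the test. Irf2bp1 was at 46.8, 54.3 and 49.99 CPM in controls and at 45.6 and 46.3 CPM in the knockout. Irf2bpl was at 120, 108 and 118 CPM in controls and at 172 and 132 CPM in the knockout (log2 fold change of 0.39, adjusted p = 0.265). The standard errors of the 2 paralogs were 0.127 and 0.150 on the log2 scale, and a difference in either gene that missed the threshold cannot be told from none with these libraries.

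Most genes that passed the test were higher in the knockout, although values over all genes were nearly even in sign. Of 15350 genes tested with edgeR's quasi-likelihood test, 412 were higher (2.68% of those tested) and 23 were lower (0.15%) in the knockout at a Benjamini-Hochberg adjusted p under 0.05, which is the meaning of a change that passed the test throughout. Of the 412 genes that rose, 9 were on a list of T cell genes, 37 on a list of another lineage, 38 on lists of cell division or signaling genes and 328 on no list. Of the 23 genes that fell, 2 were T cell genes, 1 was Irf2bp2 itself and 20 were on no list. The higher genes made up 94.7% of the calls, against 79.1% with DESeq2. The median log2 fold change (log2FC, knockout minus control) over all genes tested was -0.02, with 7354 positive and 7996 negative values, and 2794 genes lay above and 2735 below every control in both knockout libraries. The number of calls depended on the library left out. Without control replicate 1 the counts were 6 higher and 1 lower, without control replicate 2 they were 594 and 65, and without control replicate 3 they were 391 and 51. Leaving out a knockout library leaves 1 in that group, so the number of calls in such fits is not comparable. Every one of the 412 and 23 genes kept its direction in each of these fits, which share libraries with the fit that selected the genes.

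**Figure D1:**
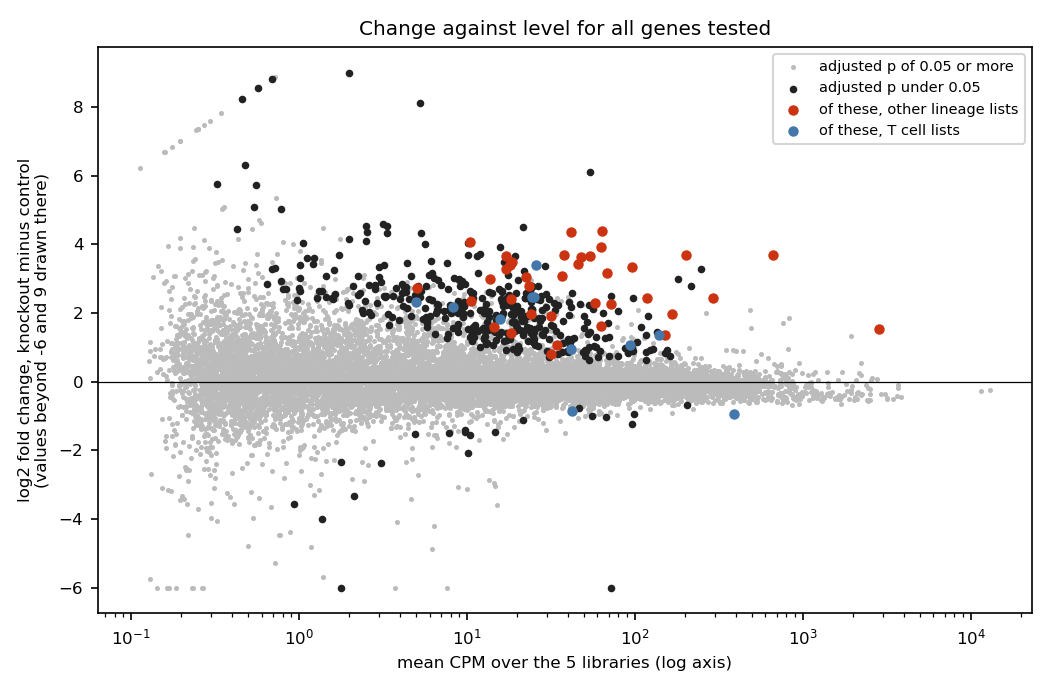
Each point is 1 of the 15350 genes tested, with its mean CPM over the 5 libraries on the horizontal log axis and its log2 fold change (knockout minus control) on the vertical axis. Genes with an adjusted p under 0.05 are dark, and those on lists of other lineages (37) or of T cells (11) are coloured; nearly all coloured points lie above 0.

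None of the 18 T cell markers passed the test, while 16 of them lay below every control in both knockout libraries and the median log2FC of the list was -0.43. At an unadjusted p under 0.05 in edgeR, 9 of them were lower and 0 higher, and DESeq2 called 3 lower and 0 higher. Over all 15350 genes tested, 2735 lay below every control and 2488 were under that unadjusted p in either direction. DESeq2 called 253 of its 22114 genes lower. Cd3e, a chain of the CD3 complex, measured 338, 446 and 390 CPM in controls against 280 and 284 CPM in the knockout (adjusted p = 0.205). Thy1, a surface glycoprotein of all mouse T cells, measured 935, 900 and 984 CPM against 618 and 624 CPM (adjusted p = 0.0671). The costimulatory receptor Cd28 was one of the 2 markers with a positive value (264, 236 and 247 CPM in controls, 274 and 256 CPM in the knockout). The log2FCs of the markers ranged from -0.68 to 0.09, and their summed level was lowest in the same 2 libraries in which erythroid transcripts were highest (5830 and 7915 summed CPM, against 719 to 2470 in controls). The part of these transcripts in the lower marker values was not tested. The 18 T cell receptor signaling genes (median -0.14) and the 20 T cell transcription factors (median -0.09) had no member that passed with edgeR, while 2 members were higher and 6 lower at an unadjusted p under 0.05 and DESeq2 called 3 lower. Lef1, a transcription factor of naive T cells, came closest, with 554, 573 and 550 CPM in controls and 358 and 365 CPM in the knockout (log2FC -0.63, adjusted p = 0.0513).

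Among genes of resting T cells and of T cell homing, 1 of 19 fell (5.26%, against 0.15% of all genes tested). None rose, against 2.68% of all genes tested, and the median was -0.28. The gene that fell was Cxcr6, a chemokine receptor of tissue-homing and effector T cells, with 55.7, 54.4 and 45.8 CPM in controls and 30.1 and 26.8 CPM in the knockout. The groups were separate, with a log2FC of -0.87 (standard error 0.150, adjusted p = 0.0362). The homing receptors Ccr7 and Ccr9 had values of the same sign that did not pass. Ccr7, the receptor that guides naive T cells to lymphoid tissue, measured 370, 346 and 312 CPM in controls and 224 and 252 CPM in the knockout (adjusted p = 0.123). Ccr9, a gut homing receptor, measured 51.2, 89.8 and 73.4 CPM against 32.2 and 40.7 CPM (adjusted p = 0.118). For Cxcr6, Ccr7 and Ccr9 both knockout libraries lay below every control. Over the list, 7 genes had positive and 12 negative values. On it, 3 lay above and 7 below every control, against 2794 and 2735 of all 15350 genes tested. The list members above were Itga4, Cd44 and Cxcr5 (log2FCs 0.53, 0.45 and 0.50), and none of the 3 passed.

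**Figure D2:**
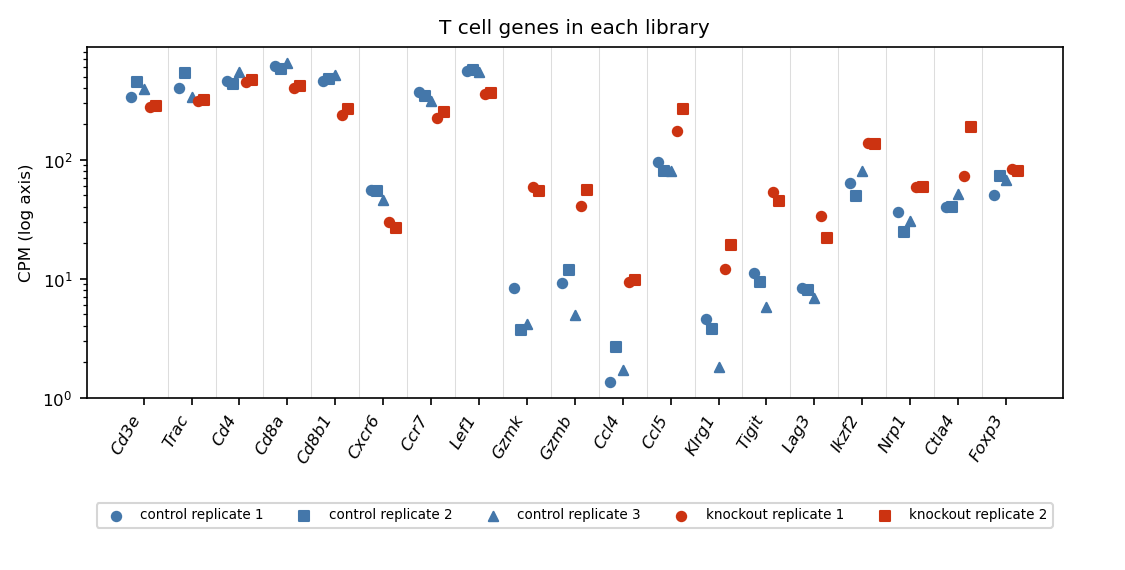
Each symbol is the level of a T cell gene in 1 library, in CPM on a log axis, with controls in blue and knockout libraries in red. Gzmk, Gzmb, Ccl4, Tigit and Lag3 stand well above the controls in both knockout libraries, while Cd8b1 and Cxcr6 stand below them and Cd4 overlaps.

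The CD8 and cytotoxic genes split. Of 17, 5 rose (29.4%, against 2.68% of all genes tested) and 1 fell (5.88%, against 0.15%), and the median was 0.95. The gene that fell was Cd8b1, which encodes the beta chain of the CD8 coreceptor, with 458, 479 and 515 CPM in controls and 236 and 268 CPM in the knockout (log2FC -0.94, standard error 0.137, adjusted p = 0.0211). Its neighbour on chromosome 6, Cd8a, which encodes the alpha chain, measured 612, 584 and 651 CPM against 398 and 414 CPM and did not pass (log2FC -0.60, adjusted p = 0.0676). Neither CD8 chain overlapped between the groups. Cd4, the coreceptor of helper T cells, overlapped, with 458, 435 and 543 CPM in controls and 447 and 465 CPM in the knockout (adjusted p = 0.872). The difference between the CD8 and CD4 genes was not tested.

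The genes that rose encode granule proteases, chemokines and a receptor of effector cells. Gzmk, which encodes granzyme K, had 8.26, 3.68 and 4.13 CPM in controls and 58.8 and 54.9 CPM in the knockout. It was the most raised T cell gene, with a log2FC of 3.39 (standard error 0.351, adjusted p = 0.0100). Gzmb, the protease granzyme B of killer cells, had 9.15, 11.7 and 4.94 CPM against 40.5 and 56.0 CPM (log2FC 2.47, adjusted p = 0.0196). Both knockout libraries were above all controls for the 2 granzymes. The chemokines Ccl4 and Ccl5, which attract T cells and monocytes, rose as well. Ccl4 measured 1.35, 2.68 and 1.69 CPM in controls and 9.32 and 9.72 CPM in the knockout (log2FC 2.31, adjusted p = 0.0251). Ccl5 measured 96.1, 80.4 and 81.1 CPM against 175 and 268 CPM (log2FC 1.37, adjusted p = 0.0218). The inhibitory lectin receptor Klrg1, found on terminally differentiated effector cells, measured 4.56, 3.73 and 1.81 CPM against 12.1 and 19.1 CPM (log2FC 2.19, adjusted p = 0.0465). Other members of the cytotoxic machinery did not pass. Prf1, the pore protein perforin, measured 56.0, 56.2 and 58.0 CPM in controls and 60.4 and 74.3 CPM in the knockout (adjusted p = 0.440). Ifng, which encodes interferon gamma, measured 2.75, 2.13 and 4.75 CPM against 8.20 and 13.1 CPM (adjusted p = 0.0863). Gzma, granzyme A, differed between the 2 knockout libraries (36.2 and 115 CPM, against 25.2, 24.9 and 9.32 CPM in controls). Klrd1, the CD94 chain of NK and CD8 cell receptors, had the opposite sign (120, 101 and 70.0 CPM against 44.0 and 55.7 CPM, adjusted p = 0.111).

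Genes of regulatory T cells and of inhibitory receptors formed the other group of T cell genes with rises. Of 21, 4 were higher (19%, against 2.68% of all genes tested) and 0 lower, with a median of 0.42. Tigit, an inhibitory receptor of activated and regulatory T cells, had 11.1, 9.40 and 5.76 CPM in controls and 53.7 and 45.1 CPM in the knockout (log2FC 2.48, standard error 0.275, adjusted p = 0.0101). Lag3, an inhibitory receptor that binds class II molecules, had 8.29, 8.02 and 6.88 CPM against 33.5 and 21.8 CPM (log2FC 1.83, adjusted p = 0.0147). Neither receptor overlapped between the groups. Ikzf2, the transcription factor Helios, measured 63.9, 49.5 and 81.0 CPM in controls and 138 and 135 CPM in the knockout (log2FC 1.08, adjusted p = 0.0481). Nrp1, which encodes neuropilin 1, measured 36.2, 24.7 and 30.7 CPM against 59.0 and 58.9 CPM (log2FC 0.95, adjusted p = 0.0472). Foxp3, the defining factor of regulatory T cells, did not pass, with 50.9, 72.9 and 67.6 CPM in controls and 83.5 and 80.6 CPM in the knockout (log2FC 0.36, adjusted p = 0.373). Of the other 17 genes on the list, 12 had positive and 5 negative values that missed the threshold, among the latter the inhibitory receptor Btla (153, 129 and 109 CPM against 138 and 116 CPM). Ctla4 differed between the knockout libraries, at 73.3 and 189 CPM in the knockout against 39.9, 39.8 and 51.2 CPM in controls (adjusted p = 0.0826). Havcr2, the receptor TIM-3, measured 2.11, 3.13 and 1.00 CPM against 14.8 and 7.91 CPM (adjusted p = 0.0599). Pdcd1, the receptor PD-1, measured 16.1, 13.9 and 8.88 CPM against 37.4 and 20.7 CPM (adjusted p = 0.148).

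Over all 113 T cell genes, 9 rose (7.96%, against 2.68% of all genes tested) and 2 fell (1.77%, against 0.15%), and the median log2FC was -0.09. Of these genes, 28 lay above every control in both knockout libraries and 38 below, against 2794 and 2735 of all 15350 genes tested. The scale matters here: when the libraries were scaled to the summed counts of the 18 T cell markers, the median of all genes moved to 0.39, so that fold changes are then read against that value. On that scale 20 of the T cell genes were higher and 0 lower, against 1088 and 10 of all 15350 genes. Cd8b1 was at -0.54 (adjusted p = 0.0951) and Cxcr6 at -0.46 (adjusted p = 0.136), and Cd4 turned from -0.07 to 0.33. Gzmk was at 3.78 (adjusted p = 0.00564) on that scale. Without control replicate 1, only Gzmk passed among the T cell genes that rose.

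**Figure D3:**
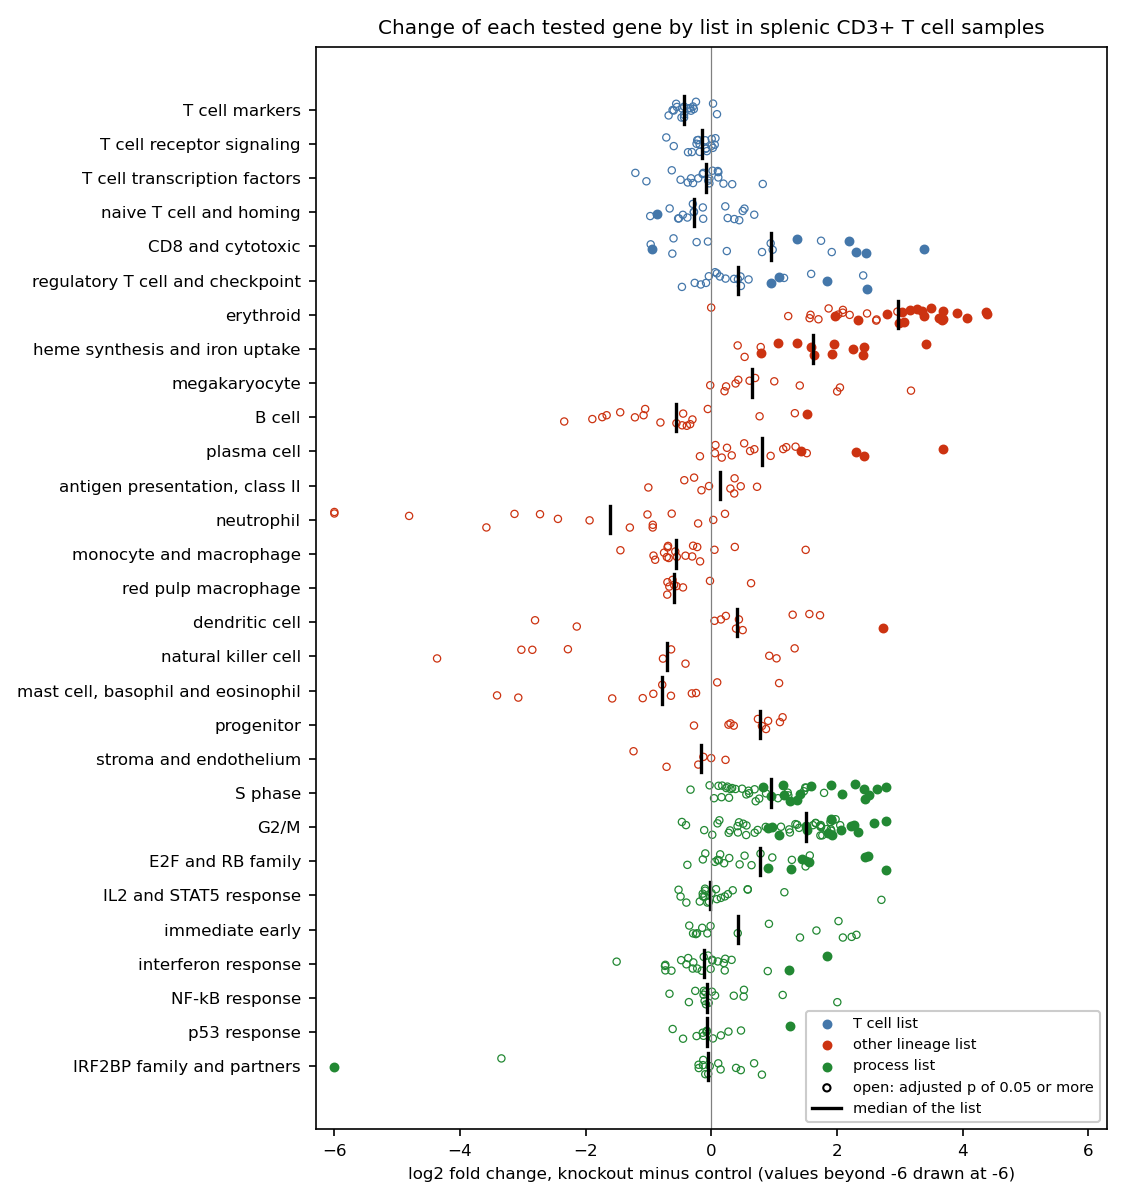
Each point is 1 tested gene, placed by its log2 fold change (knockout minus control) in the row of its list, filled where the adjusted p is under 0.05, and the black bar is the median of the list. The erythroid and heme lists lie furthest to the right (medians 2.97 and 1.61), the cell division lists follow (0.95 and 1.51), and the T cell marker list lies to the left of 0 (-0.43).

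Erythroid genes had the highest median of the lists: 20 of 34 rose (58.8%), 0 fell, 33 lay above all controls and the median log2FC was 2.97. The members that rose cover the membrane skeleton and regulators of red cell precursors. Sptb, the beta chain of erythroid spectrin, had 7.72, 8.19 and 5.13 CPM in controls and 148 and 151 CPM in the knockout (log2FC 4.40, standard error 0.209, adjusted p = 0.00122). Both knockout libraries were far above every control. Ank1, the ankyrin that anchors spectrin, measured 10.7, 11.3 and 5.94 CPM in controls and 129 and 157 CPM in the knockout (log2FC 3.92, adjusted p = 0.00451). Slc4a1, the anion exchanger band 3, measured 36.7, 54.5 and 14.1 CPM against 403 and 504 CPM (log2FC 3.68, adjusted p = 0.0175). No membrane gene named here overlapped between the groups, and the smallest ratio of mean CPM among them was 12.9, for Slc4a1.

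Of the lineage's transcription factors on the list, Gata1, Klf1, Sox6, Tal1 and Gfi1b rose, while Nfe2 did not pass (4.32, 12.2 and 2.31 CPM in controls, 18 and 20.1 CPM in the knockout, adjusted p = 0.269). Gata1, the master regulator of erythroid cells, had 9.96, 16.3 and 7.07 CPM in controls and 38.5 and 49.1 CPM in the knockout (log2FC 1.97, adjusted p = 0.0349). Klf1, which activates the adult beta globin gene, had 5.02, 11.8 and 3.82 CPM against 43.4 and 53.2 CPM (log2FC 2.79, adjusted p = 0.0293). Sox6, a factor that silences embryonic globin in definitive erythroblasts, had 1.46, 1.49 and 1.31 CPM against 22.6 and 25.7 CPM (log2FC 4.07, adjusted p = 0.00153). Of these factors, Sox6 was the most even among the controls. Tal1 and Hemgn rose by 3.07 and 3.67 on the log2 scale (adjusted p = 0.0269 and 0.0147). The globin genes themselves did not pass, and their levels differed widely between controls. So did those of some erythroid genes that passed, such as Rhag (6.64, 10.2 and 2.38 CPM in controls) and Epb42 (3.89, 5.78 and 0.876 CPM). Hba-a1, an alpha globin gene, measured 657, 372 and 177 CPM in controls and 1068 and 1558 CPM in the knockout (log2FC 1.71, adjusted p = 0.147). Hbb-bt, a beta globin gene, measured 350, 188 and 91.8 CPM against 725 and 1070 CPM (log2FC 2.09, adjusted p = 0.0920). Both knockout libraries were above all controls for each globin gene, and control replicate 1 was the highest control for both. Globin gene copies are nearly identical, so the split of reads between them is uncertain. The erythropoietin receptor gene Epor was also above all controls without passing (2.89, 8.10 and 1.56 CPM against 26.1 and 26.7 CPM, adjusted p = 0.0794). The number of erythroid genes that passed ranged from 3 without control replicate 1 to 26 without control replicate 2.

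**Figure D4:**
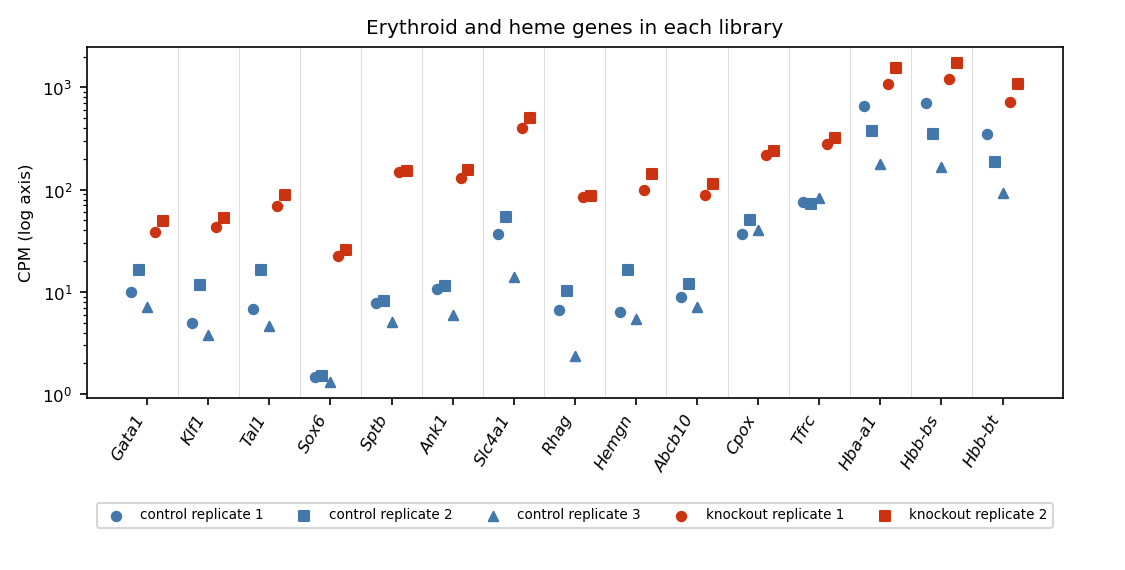
Each symbol is the level of an erythroid or heme gene in 1 library, in CPM on a log axis, with controls in blue and knockout libraries in red. All 15 genes shown are above the controls in both knockout libraries. The controls of the globin genes span a wide range (177 to 657 CPM for Hba-a1), as do those of Slc4a1 (14.1 to 54.5 CPM), while those of Sptb are more even (5.13 to 8.19 CPM).

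A pair of the raised erythroid genes are shown with the sequence before their start sites, because members of a list that move together can be compared for the words their promoters share. They are those of lowest p among the raised members whose window held a word. Windows without one, such as those of Sptb and Sox6, were passed over. The promoter windows are from RefSeq on GRCm38.p6, the assembly called mm10, and run from 250 bases before the start site to 50 bases after it. Capitals mark AGATAA, a word bound by GATA factors, on either strand (as TTATCT on the other).
Hemgn promoter, chr4:46404134-46404433 (minus strand): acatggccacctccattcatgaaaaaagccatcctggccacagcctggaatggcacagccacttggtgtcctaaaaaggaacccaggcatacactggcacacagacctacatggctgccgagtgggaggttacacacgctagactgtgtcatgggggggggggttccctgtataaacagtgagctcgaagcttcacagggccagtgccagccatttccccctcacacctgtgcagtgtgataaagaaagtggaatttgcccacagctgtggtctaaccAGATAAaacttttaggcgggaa
Tal1 promoter, chr4:115056176-115056475 (plus strand): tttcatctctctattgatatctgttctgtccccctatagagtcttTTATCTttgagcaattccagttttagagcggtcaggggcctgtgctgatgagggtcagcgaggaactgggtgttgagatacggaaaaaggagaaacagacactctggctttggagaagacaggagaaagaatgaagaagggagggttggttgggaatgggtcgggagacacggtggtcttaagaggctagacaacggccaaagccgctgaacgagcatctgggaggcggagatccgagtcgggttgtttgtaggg

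Of the erythroid genes, 26 of 34 had a promoter in the table, and 10 of these windows (38.5%) held AGATAA on either strand, against 10.2% of all 20592 promoters with 1 window per gene. The word CCACACCC, which KLF factors bind, was in 2 of the 26 windows (7.69%, against 3.69% of all). Among the 14 members that rose and had a window, 5 held AGATAA and 0 held CCACACCC. A match is a description of the window and not evidence of binding.

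Heme synthesis and iron uptake showed the highest share of changed members, with 11 of 14 genes higher (78.6%), 0 lower and a median of 1.61. All 14 were above every control in both knockout libraries. Tfrc, the transferrin receptor through which dividing cells and erythroblasts take up iron, had 75.6, 72.0 and 83.7 CPM in controls and 277 and 323 CPM in the knockout (log2FC 1.96, standard error 0.136, adjusted p = 0.00451). Cpox, coproporphyrinogen oxidase, had 37.2, 50.6 and 39.9 CPM against 221 and 240 CPM (log2FC 2.44, adjusted p = 0.00451). Neither gene overlapped between the groups, and both were high in the same 2 libraries as the erythroid sums, whose part in them was not tested. Abcb10, a mitochondrial transporter needed for heme synthesis, measured 8.83, 12.1 and 7.13 CPM in controls and 87.9 and 114 CPM in the knockout (log2FC 3.42, adjusted p = 0.00451). Alad and Fech, enzymes of an early and the last step of the pathway, rose by 1.92 and 1.63 on the log2 scale (adjusted p = 0.0100 for each). Urod and Ppox, which act between them, did not pass (0.53 and 0.42, adjusted p = 0.228 and 0.189), nor did Tmem14c (0.79, adjusted p = 0.188). Alas2, the erythroid form of the first enzyme of the pathway and a member of the erythroid list, measured 23.9, 12.8 and 5.01 CPM against 65.6 and 91.7 CPM (adjusted p = 0.0723).

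**Figure D5:**
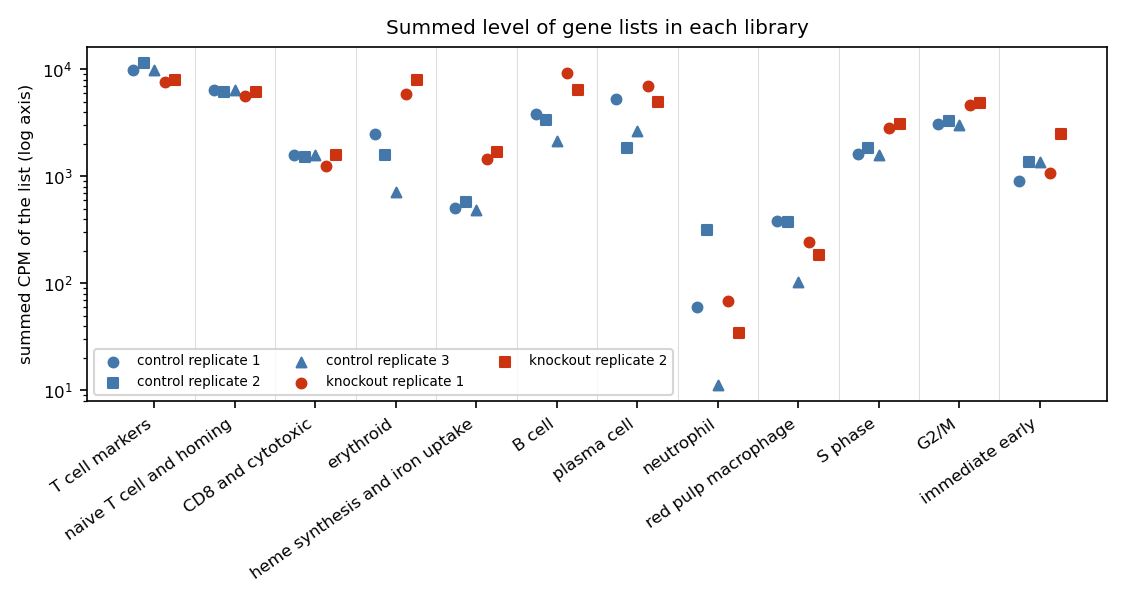
Each symbol is the summed CPM of all members of a gene list in 1 library, on a log axis, with controls in blue and knockout libraries in red. The T cell marker sum is lower and the erythroid, heme, S phase and G2/M sums are higher in both knockout libraries, while control replicate 2 alone carries the high neutrophil sum (315.5 CPM).

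Genes of antibody-secreting cells rose in part, whereas the genes that define B cells did not. Of 18 plasma cell genes, 4 were higher (22.2%) and 0 lower, with a median of 0.82. Ighg2b, the IgG2b heavy chain, had 153, 128 and 66.8 CPM in controls and 1489 and 1496 CPM in the knockout (log2FC 3.68, standard error 0.334, adjusted p = 0.00840). Ighg2c, the IgG2c heavy chain, had 124, 114 and 80.5 CPM against 625 and 519 CPM (log2FC 2.43, adjusted p = 0.00760). Ighg1 rose by 2.31 on the log2 scale (adjusted p = 0.0342). These 3 IgG chains did not overlap between the groups, and the other chain, Ighg3, did not pass (20.4, 33.9 and 17.6 CPM in controls, 46.1 and 66.8 CPM in the knockout, adjusted p = 0.102). Prdm1, the factor BLIMP1 of plasma cells and of effector T cells, measured 14.1, 8.80 and 9.82 CPM in controls and 30.2 and 28.4 CPM in the knockout (log2FC 1.42, adjusted p = 0.0317). The IgA chain Igha overlapped, with 3502, 854 and 1743 CPM in controls and 2868 and 1366 CPM in the knockout (adjusted p = 0.977). Sdc1, the plasma cell surface marker CD138, measured 8.50, 4.23 and 4.25 CPM against 13.8 and 11.3 CPM (adjusted p = 0.192).

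Of 19 B cell genes, 1 rose, 0 fell and the median was -0.55. The gene that rose was Ighm, the IgM heavy chain, with 1756, 1938 and 1200 CPM in controls and 5511 and 3891 CPM in the knockout (log2FC 1.53, adjusted p = 0.0298). Cd79a, a chain of the B cell receptor complex, measured 32.8, 62.1 and 5.38 CPM in controls and 22.4 and 9.44 CPM in the knockout. Its levels overlapped between the groups, with the highest in control replicate 2 and the lowest in control replicate 3. Over immunoglobulin genes of the annotation, 19 of 185 variable segments rose and 1, Igkv11-125, fell (median 1.31), and 4 of 10 constant genes rose. Variable segments are similar in sequence, so the assignment of reads among them is uncertain. Of 127 variable segments of the T cell receptor, 0 passed in either direction with edgeR, 25 had a positive value and the median was -0.32, where the overall shares of 2.68% and 0.15% leave few to pass.

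Among the other lineages, at most 1 member of a list passed. None of 16 neutrophil genes, 18 monocyte and macrophage genes, 9 red pulp macrophage genes, 10 class II genes, 10 NK cell genes, 11 mast cell, basophil and eosinophil genes, 12 megakaryocyte genes, 10 progenitor genes and 6 stromal genes passed the test in either direction. Over the 102 genes of these 9 lists, 7 were higher and 8 lower at an unadjusted p under 0.05 in edgeR. Of all 15350 genes tested, 2488 were under that p, so the pooled counts do not set the 9 lists as a whole apart. DESeq2 called 2 higher and 5 lower, against 958 and 253 of all its 22114 genes. The lists differed in sign, which pooling hides. Megakaryocyte genes had 11 positive values and 1 negative (median 0.65), with 6 above every control and 0 below. Progenitor genes had 9 positive values and 1 negative (median 0.77), with 4 above every control and 0 below. Neutrophil genes had 2 positive and 14 negative values (median -1.62). The neutrophil sum was 315.5 CPM in control replicate 2 and between 11.1 and 69.0 CPM in the other 4 libraries. Monocyte and macrophage genes had a median of -0.56 and red pulp macrophage genes one of -0.59, and control replicate 3 was the lowest of all libraries in both sums. Macrophages of the red pulp clear old red cells, and their summed level overlapped between the groups (386.3, 376.7 and 103.5 CPM against 245.3 and 183.9 CPM). Of 12 dendritic cell genes 1 rose, Zbtb46, a factor of classical dendritic cells, with 1.43, 1.83 and 1.31 CPM in controls and 10.9 and 9.66 CPM in the knockout (log2FC 2.74, adjusted p = 0.0100). Of the 12 genes, 10 had positive and 2 negative values, and 4 lay above every control, which besides Zbtb46 were Flt3, Clec9a and Xcr1 (log2FCs 1.56, 1.73 and 1.30). The other members overlapped between the groups, among them Itgax, Irf8 and Batf3, and the negative values were those of Siglech and Cd209a. Which cells carried the Zbtb46 transcripts was not tested. Over all 15350 genes tested, 2794 lay above and 2735 below every control. Of the 10 NK cell genes, 3 had positive and 7 negative values, with Itga2 above every control and the receptor genes Klra4, Klra7 and Klra8 below every control. Klra7, the highest of them, measured 5.16, 2.46 and 1.88 CPM against 0.235 and 0.648 CPM. The Klra copies are similar in sequence, so their counts are uncertain. Over all 198 genes of other lineages, 37 rose (18.7%) and 0 fell, and 31 of the 37 were on the erythroid or the heme list.

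Genes of cell division rose as a further group. Of 43 S phase genes, 16 were higher (37.2%) and 0 lower, and of 54 G2/M genes, 14 were higher (25.9%) and 0 lower, with medians of 0.95 and 1.51. Mki67, the proliferation antigen Ki-67, had 68.4, 78.1 and 45.9 CPM in controls and 409 and 475 CPM in the knockout (log2FC 2.78, standard error 0.232, adjusted p = 0.00717). Rrm1, the large subunit of ribonucleotide reductase, had 59.4, 64.6 and 57.3 CPM against 176 and 187 CPM (log2FC 1.59, adjusted p = 0.00541). Uhrf1, which maintains DNA methylation through replication, had 21.4, 28 and 21.6 CPM against 80.5 and 96.8 CPM (log2FC 1.90, adjusted p = 0.00840). All 3 genes were separate between the groups, and Rrm1 was the most even of them among controls. Other S phase genes that rose include the replication licensing factor Cdc6 (2.64), the checkpoint adaptor Clspn (2.43), the DNA polymerase subunit Pola1 (1.36) and the helicase subunits Mcm5 and Mcm6 (1.15 and 0.83), all as log2FCs. Mitotic genes that rose include the kinetochore motor Cenpe (2.07), the contractile ring protein Anln (2.59) and the topoisomerase Top2a (1.91). Pcna, the sliding clamp of replication, did not pass, with 150, 204 and 139 CPM in controls and 209 and 254 CPM in the knockout (adjusted p = 0.289).

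These cell division genes moved in the same libraries as the erythroid genes, and the part of red cell precursors in them was not tested. In control replicates 1, 2 and 3 the erythroid sums were 2470, 1598 and 719 CPM. The S phase sums were 1614, 1828 and 1568 CPM and the G2/M sums 3100, 3275 and 3008 CPM. The erythroid sum includes the globin genes, such as Hba-a1 and Hbb-bs at 657 and 696 CPM in control replicate 1. How far this sum follows the number of dividing red cell precursors was not tested. In the knockout, the erythroid sums were 5830 and 7915 CPM, the S phase sums 2810 and 3065 CPM and the G2/M sums 4611 and 4897 CPM. Without control replicate 1, 0 genes of either list passed.

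The promoters of a pair of S phase genes and a pair of G2/M genes are shown for the words that such genes are known to share. Both pairs were chosen for holding a word, and the S phase windows of Rrm1 and Uhrf1, which held none, were passed over. Capitals in the S phase promoters mark TTTGGCGC, TTTCGCGC or TTTCCCGC, words bound by E2F factors, and capitals in the G2/M promoters mark CCAAT, the word of the NF-Y factor, and TTTGAA, known as the CHR word, each on either strand.
Pola1 promoter, chrX:93632106-93632405 (minus strand): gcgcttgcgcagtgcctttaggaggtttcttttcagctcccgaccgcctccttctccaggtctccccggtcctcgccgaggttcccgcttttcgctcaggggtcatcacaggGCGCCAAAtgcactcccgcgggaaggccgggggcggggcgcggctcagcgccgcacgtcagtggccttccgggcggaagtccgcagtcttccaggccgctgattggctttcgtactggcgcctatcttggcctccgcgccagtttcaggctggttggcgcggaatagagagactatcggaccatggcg
Dtl promoter, chr1:191575495-191575794 (minus strand): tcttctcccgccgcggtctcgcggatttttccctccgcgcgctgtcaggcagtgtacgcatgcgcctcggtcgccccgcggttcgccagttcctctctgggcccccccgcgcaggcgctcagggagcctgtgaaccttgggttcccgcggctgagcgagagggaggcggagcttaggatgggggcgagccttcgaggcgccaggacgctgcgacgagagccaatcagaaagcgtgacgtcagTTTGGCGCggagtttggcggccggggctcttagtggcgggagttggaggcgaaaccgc
Mki67 promoter, chr7:135716330-135716629 (minus strand): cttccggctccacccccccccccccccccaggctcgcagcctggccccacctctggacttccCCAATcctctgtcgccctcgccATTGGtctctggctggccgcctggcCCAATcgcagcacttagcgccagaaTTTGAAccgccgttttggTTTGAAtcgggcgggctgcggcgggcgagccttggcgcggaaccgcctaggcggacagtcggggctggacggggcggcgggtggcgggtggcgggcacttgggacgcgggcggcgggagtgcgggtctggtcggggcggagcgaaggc
Cenpe promoter, chr3:135212313-135212612 (plus strand): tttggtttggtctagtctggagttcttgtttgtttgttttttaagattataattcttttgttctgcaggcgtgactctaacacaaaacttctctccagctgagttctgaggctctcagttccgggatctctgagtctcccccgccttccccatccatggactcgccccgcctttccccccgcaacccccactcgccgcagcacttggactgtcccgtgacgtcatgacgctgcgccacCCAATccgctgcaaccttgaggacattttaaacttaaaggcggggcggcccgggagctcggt

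The word in the promoter of Dtl begins 8 bases before the start site, and the single CCAAT in that of Cenpe begins 12 bases before it. Of 31 S phase genes with a window, 12 (38.7%) held at least 1 of the 3 E2F words, against 2.24% of all 20592 promoters. Among the 15 members that rose and had a window, 8 held 1. Of 47 G2/M genes with a window, 36 (76.6%) held CCAAT and 32 (68.1%) held TTTGAA, against 38.2% and 16.9% of all promoters.

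The regulators of these genes rose in part. Of 25 genes of the E2F and RB family and its cyclins and kinases, 7 rose and 0 fell. The activators E2f1 and E2f2 rose by 1.44 and 1.26 on the log2 scale (adjusted p = 0.0413 and 0.0100), and the atypical repressors E2f7 and E2f8 by 2.50 and 2.78 (adjusted p = 0.0156 and 0.0108). E2f8 measured 5.97, 11.4 and 6.13 CPM in controls and 46.7 and 62.0 CPM in the knockout. The cyclins Ccne1 and Ccne2, partners of CDK2 at the start of S phase, rose by 1.55 and 2.44 (adjusted p = 0.0156 and 0.0146), and Tfdp2, a dimer partner of E2F, by 0.90 (adjusted p = 0.0241). E2f4, the E2F of resting cells, did not pass, with 101, 127 and 116 CPM in controls and 119 and 146 CPM in the knockout (adjusted p = 0.599). The D-type cyclin Ccnd1 did not pass either (4.05, 6.06 and 1.94 CPM against 12.1 and 7.66 CPM, adjusted p = 0.249).

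Signaling lists showed few changes. None of 22 IL2 and STAT5 response genes (median -0.02), 16 NF-kB genes (median -0.06) and 15 immediate early genes (median 0.42) passed with edgeR. Over the 53 genes of the 3 lists, 8 were higher and 2 lower at an unadjusted p under 0.05, against 2488 of all 15350 genes in either direction. DESeq2 called 3 higher and 2 lower. The immediate early genes followed single libraries: Jun measured 6.86, 10.4 and 92.2 CPM in controls and 46.3 and 246 CPM in the knockout, and Fos measured 14.1, 37.5 and 102 CPM against 71.9 and 252 CPM. Tnfaip3, an NF-kB target that encodes the inhibitor A20, measured 841 CPM in knockout replicate 2 and between 71.9 and 200 CPM elsewhere. Of 25 interferon response genes, 2 rose, namely Gbp3 (27.6, 25.3 and 29.2 CPM in controls, 63.3 and 65.1 CPM in the knockout, adjusted p = 0.0100) and Rsad2 (14.9, 15.7 and 8.63 CPM against 48.1 and 46.7 CPM, adjusted p = 0.0193), and the median was -0.12. Of 12 p53 response genes, 1 rose, the proapoptotic gene Pmaip1 (log2FC 1.25, adjusted p = 0.0402). Apart from Irf2bp2, none of 14 tested paralogs and partner genes of the IRF2BP family passed, and Rag1 was at most at 0.387 CPM in any library.

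The largest rises among genes of at least 10 CPM in the knockout belonged to 2 apolipoprotein L genes of a cluster on chromosome 15. Apol11b measured 2.56, 2.41 and 0.313 CPM in controls and 145 and 123 CPM in the knockout (log2FC 6.12, standard error 0.540, adjusted p = 0.00816). Apol11a measured 0.108, 0 and 0 CPM against 14.5 and 11.8 CPM (log2FC 8.11, adjusted p = 0.00843), and Apol8 measured 0.729, 1.02 and 0.626 CPM against 11.7 and 14.3 CPM (log2FC 4.0, adjusted p = 0.00688). Apol11a was at or near the limit of detection in the controls, and all 3 genes were separate between the groups. Apol10a, chosen after its values were seen, had no count in any control and 5.46 and 4.51 CPM in the knockout, at least 148-fold higher. Other Apol genes of the cluster did not pass, such as Apol7e (129, 146 and 109 CPM against 104 and 109 CPM, adjusted p = 0.485) and Apol7b (32.5, 48.2 and 26.1 CPM against 24.0 and 23.5 CPM, adjusted p = 0.343). The copies are similar in sequence, so the split of reads among them is uncertain. Btnl10, a butyrophilin-like gene, had 3.05, 2.57 and 0.813 CPM in controls and 47.2 and 54.8 CPM in the knockout (log2FC 4.50, adjusted p = 0.00905). Podxl, a sialomucin of progenitors and endothelium, rose by 4.34, Tmem56 by 4.04, Sec14l2 by 3.91 and Pkhd1l1 by 3.72 on the log2 scale. Sptb, Sox6 and Ank1 were also among the 12 largest rises.

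Apart from Irf2bp2, the largest falls were moderate. The transcript 5830411N06Rik had 13.1, 19.9 and 10.7 CPM in controls and 3.47 and 3.38 CPM in the knockout (log2FC -2.09, standard error 0.330, adjusted p = 0.0275). Atp1b1, the beta subunit of the sodium pump, had 128, 147 and 102 CPM against 57.3 and 49.8 CPM (log2FC -1.23, adjusted p = 0.0229). Rras2, a small GTPase that binds the T cell receptor, had 87.2, 85.1 and 83.3 CPM against 45.6 and 37.4 CPM (log2FC -1.04, adjusted p = 0.0160). These genes were well separated and, for Rras2, nearly constant among controls. Tesc, a calcium-binding protein, measured 27.3, 27.6 and 27.0 CPM in controls and 11.8 and 13.6 CPM in the knockout (log2FC -1.10, adjusted p = 0.0211). Arhgap29, Fam174b, Myo10, Tmem108, Ampd1 and Appl2 fell by between 1.0 and 1.55 on the log2 scale. Ctsw, a protease of CD8 and NK cells, measured 127, 100 and 140 CPM against 59.9 and 68.5 CPM (log2FC -0.93, adjusted p = 0.0477), and Sh3bgrl3 fell by 0.69 (adjusted p = 0.0487).

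Among changed genes on no list, those of highest level were led by Car2, carbonic anhydrase of red cells and other tissues, with 46.5, 89.8 and 28.8 CPM in controls and 461 and 611 CPM in the knockout (log2FC 3.28, adjusted p = 0.0176). Cd24a, a surface protein of immature blood cells, had 42.7, 75.1 and 24.5 CPM against 337 and 427 CPM (log2FC 3.0, adjusted p = 0.0201). Ctse, the protease cathepsin E, had 38.6, 37.7 and 28.6 CPM against 176 and 205 CPM (log2FC 2.44, adjusted p = 0.00451). For Car2 and Cd24a the controls followed the order of Slc4a1, with replicate 2 highest and replicate 3 lowest. Odc1, which makes polyamines, rose by 1.44, the peroxiredoxin Prdx2 by 1.35, the folate enzyme Mthfd1 by 1.01, and the helicase subunits Mcm2 and Mcm3 by 0.87 and 0.89 on the log2 scale. Pabpc4, Pigq, Metap2 and Aplp2 rose by between 0.62 and 0.93.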

How the data were processed

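RNA was sequenced from 5 mouse libraries, and the 4 human libraries of the series were not used here. Reads were aligned to mm10 with HISAT2 2.2.0 and quantified with StringTie, per the submitters' processing notes, and the authors deposited raw counts per Ensembl gene and library. The annotation release, the strand setting and the way StringTie coverage became counts are not given in the sources used here, so antisense and overlapping genes are uncertain. Between 99.81 and 99.83% of a library's counts lay in the 42462 annotated of 43432 rows, and mitochondrial genes took between 2.623 and 4.144%.

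Low genes were removed with filterByExpr, library sizes were corrected by TMM, and edgeR 4.0.16 in R 4.3.3 was run on the annotated genes (quasi-likelihood test, 2 knockout against 3 control libraries, 3 residual degrees of freedom, no covariate, two-sided), with Benjamini-Hochberg adjustment over 15350 genes. CPM values use the TMM-scaled sizes. In simulated counts of 14997 genes for this comparison, edgeR recovered 49 of 50 genes changed 4-fold upwards and 17 of 50 changed 2-fold upwards, with 12 false calls. DESeq2 recovered 50 and 35 of 50 in simulated counts of 15350 genes, with 69 false calls. The counts were drawn with the spread that edgeR estimated for each gene. They therefore cannot rank the tools or show how certain the added calls of DESeq2 are. The common biological coefficient of variation was 0.271. All pairs of replicates differed by more than sampling noise.

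The comparison and the gene lists (560 symbols, of which 559 were matched; Ahsp was not) were chosen with earlier results of these data known. A gene on 2 lists counts in both, but once in a class. The text draws on Irf2bp2 and its list, up to 4 members of a list with the lowest p and up to 4 with the highest level, T cell genes that passed, the 12 largest rises and falls of at least 10 CPM in the higher group with no overlap and a constant sign, and the 15 passed genes of highest level on no list. Other genes were named after their values were seen. Alternatives were DESeq2 1.42.0, other scalings and filters, a fold threshold, halved counts, all rows, a replicate block and leaving out each library. The values of some single genes are not reported here.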

Additional observations from a re-analysis of the deposited data

How the results depend on the processing

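All 412 higher and 23 lower genes kept their direction under every alternative in which they were tested. They were selected in the main fit, and the alternatives reuse its libraries, so a kept direction is a weak check. The number of calls varied, and the cause was not tested. DESeq2 called 958 genes higher and 253 lower, among them 14 T cell genes higher and 14 lower and 5 genes of other lineages lower. In simulated counts it made 69 false calls, against 12 with edgeR, but those counts were drawn with edgeR's own estimates of spread. Scaling to T cell markers gave 1088 higher and 10 lower, with 20 T cell genes higher and 0 lower. Counts divided by 2 gave 37 lower genes, and a fold threshold left 0 T cell genes lower. The labels number the replicates and name no pairing. Same-numbered libraries had deviations from their group means correlated at 0.151 for number 1 and -0.161 for number 2. With 2 knockout libraries the deviations of 1 mirror those of the other, so these values cannot show whether the numbers mark a pairing. The replicate block gave 443 higher and 53 lower genes, with 5 T cell genes and 3 genes of other lineages lower. Leaving out 1 library gave between 6 and 594 genes higher and between 1 and 65 lower, for T cell genes 0 to 10 higher and 0 to 6 lower, and for other lineages 3 to 45 higher and 0 to 4 lower. The lowest count came without control replicate 1 (6 higher).

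Of the named genes' values under alternatives, 12 turned in sign, none of them of a gene that passed. With scaling to T cell markers Irf2bp1 was at 0.28, Cd4 at 0.33, Apol7e at 0.15 and Btla at 0.37. Cd4 was at 0.030 with the replicate block and between -0.12 and 0.025 when 1 library was left out. Btla was at 0.0069 with a filter of 10 counts in every library and between -0.19 and 0.097 when 1 library was left out. Igha was between -0.60 and 0.72 when 1 library was left out. With 2 knockout libraries, 2-fold changes were often missed in simulated counts (17 of 50 recovered).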

Other observations

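Some genes on no list, named after their values were seen, were higher in both knockout libraries than in every control (log2FC is the log2 fold change by edgeR's quasi-likelihood test, Benjamini-Hochberg adjusted). Maf, a transcription factor of helper and regulatory T cells, measured 44.2, 38.3 and 38.6 CPM in controls and 74.6 and 91.3 CPM in the knockout (log2FC 1.04, adjusted p = 0.0193). Aldh1a1, which makes retinoic acid, measured 3.91, 3.21 and 2.94 CPM against 42.4 and 43.9 CPM (log2FC 3.67, adjusted p = 0.00153).

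A few further genes were picked in the same way, without a list or a count of related genes that did not pass. Casp1, the caspase that activates interleukin 1 beta, measured 16.5, 12.7 and 14 CPM in controls and 40.5 and 43.1 CPM in the knockout (log2FC 1.54, adjusted p = 0.0100). Naip5, a sensor of bacterial flagellin, measured 7.69, 4.73 and 6.13 CPM against 35.4 and 28.6 CPM (log2FC 2.37, adjusted p = 0.0100). Casp4, Naip2 and Naip6 rose by 1.37, 1.23 and 2.64 on the log2 scale. The Naip copies are similar in sequence, so the split of reads among them is uncertain.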
